A study of Mus musculus with 6 samples.

Results

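The receptors that switch gastric acid secretion on and off, with the G proteins and adenylate cyclases behind them, were followed in the stomach lining of mice lacking Lasp1. The group was chosen by function and holds 9 genes, those encoding the histamine, gastrin, acetylcholine, somatostatin and prostaglandin E receptors of this pathway (Hrh2, Cckbr, Chrm3, Sstr2 and Ptger3), the G protein alpha subunits Gnas and Gnaq and the cyclases Adcy6 and Adcy9. It is read by 29 probes of the 45281 on each array, out of 19057 genes named there. Per the labels, the samples were fundic gastric mucosa, the acid-secreting region, of C57Bl/6Ncr mice aged 3 months: 3 arrays of Lasp1 knockout mucosa and 3 of wild type mucosa. The labels give no treatment, no sex, no deletion allele and no statement that the wild type mice were littermates, nor whether the arrays came from different mice, and a p-value here covers array-to-array spread, which may be technical. For none of the 9 genes did the difference between knockout and wild type mucosa pass the threshold (limma adjusted p under 0.05), which Lasp1 itself also missed.

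Acid is secreted by parietal cells. Histamine from enterochromaffin-like cells binds the H2 receptor, which couples through the stimulatory G protein to adenylate cyclase and raises cAMP. Acetylcholine from vagal nerves acts through the M3 receptor and the Gq protein to raise calcium, and gastrin acts mainly on enterochromaffin-like cells to release histamine. Somatostatin and prostaglandin E2 restrain secretion through receptors that couple to inhibitory G proteins.

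Lasp1, the deleted gene, had a brightest-probe intensity of 88521, 111002 and 89823 on knockout replicates 1 to 3, against 270957, 275068 and 177315 on wild type replicates 1 to 3. The groups did not overlap. The log2 difference of -1.30 (SE 0.21, 95% interval -1.79 to -0.81) missed the threshold (limma adjusted p = 0.994), but its interval excluded 0. A further probe, ILMN_2879745, also had groups that did not overlap (-1.59, 95% interval -2.40 to -0.78). The dimmest, ILMN_2596851, had overlapping groups (-0.21, 95% interval -0.67 to 0.25). The brightest probe and ILMN_2879745 read above background, as defined below, on all 6 arrays. Where the probes lie relative to the deletion was not analysed. Of 12 markers of parietal cells, 11 read above background on all 6 arrays, where background is the brightest of 26 Y-linked probes of the same array, which stayed near the array median (1061 to 1212, median 1000). Their summed intensity was 1388604 to 1542530 on the knockout arrays and 1367514 to 1515039 on the wild type arrays, most of it from Atp4a, Atp4b and Clic6. Slc26a9 (2.77-fold over the arrays), Aqp4 (2.58-fold) and Kcne2 (2.20-fold) varied more and were lowest on wild type replicate 3. Wild type replicate 3 carried pancreatic acinar transcripts (6 probes summing to 3336195, next highest 102138 on knockout replicate 3), and knockout replicate 1 was high in smooth muscle (250265, next highest 111036) and squamous transcripts (176624, next highest 76917 on wild type replicate 2). No probe of an enteric neuron or glia marker passed the filter on dim probes.

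Every one of the 9 genes had a probe above background on all 6 arrays, and 13 of the 29 probes were. The filter kept 18 probes and all 9 genes, by their mean over both groups. The 11 probes that it left out read 680 to 1243: 6 of Gnas, 2 of Adcy6 and 1 each of Cckbr, Ptger3 and Gnaq. Intensities are linear, each array was scaled to a median of 1000 and background was not subtracted, so that folds of dim probes are understated. A gene is given by its brightest probe unless stated. The values below are intensities, and the differences are log2, knockout minus wild type, with the SE and interval of limma over all 22640 kept probes.

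The promoter windows of the histamine, gastrin and somatostatin receptors are shown, to compare which of them carry the element through which cAMP is known to act on transcription. The windows run from 250 bases before to 50 bases after the transcript start, are taken from RefSeq on GRCm38.p6 and lie on the + strand at chr13:54191879-54192178 for Hrh2, chr7:105425481-105425780 for Cckbr and chr11:113619077-113619376 for Sstr2. Capitals mark the palindromic cAMP response element TGACGTCA and the GC box, written GGGCGG or CCGCCC by strand.
Hrh2: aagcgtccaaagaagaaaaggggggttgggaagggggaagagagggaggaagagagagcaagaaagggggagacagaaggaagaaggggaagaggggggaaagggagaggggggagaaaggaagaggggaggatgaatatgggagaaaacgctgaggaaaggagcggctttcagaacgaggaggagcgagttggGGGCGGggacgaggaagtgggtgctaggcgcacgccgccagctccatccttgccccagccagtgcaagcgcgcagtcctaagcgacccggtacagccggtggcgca
Cckbr: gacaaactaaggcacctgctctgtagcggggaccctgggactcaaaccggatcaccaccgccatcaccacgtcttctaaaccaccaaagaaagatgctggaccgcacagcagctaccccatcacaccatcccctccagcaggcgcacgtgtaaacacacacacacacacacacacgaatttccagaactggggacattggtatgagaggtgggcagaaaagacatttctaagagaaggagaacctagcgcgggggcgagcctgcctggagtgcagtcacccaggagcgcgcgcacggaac
Sstr2: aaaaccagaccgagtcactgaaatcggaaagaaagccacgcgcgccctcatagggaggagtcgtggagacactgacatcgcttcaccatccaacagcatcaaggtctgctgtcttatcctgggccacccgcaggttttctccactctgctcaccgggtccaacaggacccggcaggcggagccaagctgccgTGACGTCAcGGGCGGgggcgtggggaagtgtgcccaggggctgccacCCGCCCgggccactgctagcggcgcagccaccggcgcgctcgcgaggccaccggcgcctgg
Sstr2 held a cAMP response element that began 58 bases before the start (position -58) and 2 GC boxes, none overlapping it. Hrh2 held 1 GC box and no such element, and Cckbr held neither. Of the 8 genes with a window, only Sstr2 had the full element, which occurs in 1.79% of 32851 mouse promoter windows. A GC box lay in at least 1 window of 6 genes, and occurs in 35.7% of single windows. A gene such as Gnas has more than 1 window, so a count by gene and a share of windows are not directly comparable. A match is a run of letters, and binding was not measured here.

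Among the stimulatory receptors, none was called. Hrh2, the histamine H2 receptor of the parietal cell, read 4495, 3265 and 3649 in knockout mucosa, against 5112, 3287 and 2277 in wild type mucosa. The highest and the lowest array were both wild type, and the groups overlapped. The difference was 0.16 (SE 0.30, 95% interval -0.54 to 0.86, limma adjusted p = 0.994), so that the interval runs from 0.688-fold to 1.82-fold. In bulk mucosa a change in the number of cells that carry a receptor and a change in RNA per cell cannot be told apart. Its 2 further probes lay near background (996 to 1172 and 1060 to 1213 in knockout mucosa, 941 to 1050 and 953 to 1303 in wild type mucosa). Hrh2 was highest on wild type replicate 1 and knockout replicate 1, which also carried the highest sums of smooth muscle markers (111036 and 250265, against 41106 to 68607 elsewhere). Chrm3 and Sstr2 shared these top arrays. Over all kept probes wild type replicate 1 was highest for 30.4% and knockout replicate 1 for 26.4%. The part of smooth muscle in the Hrh2 order was not tested.

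Cckbr, the gastrin receptor of enterochromaffin-like and parietal cells, read 5415, 6429 and 6091 in knockout mucosa, against 6887, 4356 and 4094 in wild type mucosa. The knockout arrays lay between the extremes of the wild type arrays. Its difference of 0.26 (SE 0.21, 95% interval -0.25 to 0.77, adjusted p = 0.994) had the smallest unadjusted p of the kept probes of the group (0.262). The summed intensity of 6 enterochromaffin-like cell markers was 44603, 54807 and 65963 in knockout mucosa, against 70523, 58512 and 56757 in wild type mucosa. Most of that sum came from Hdc and Chga, and only 4 of the 6 markers read above background on all arrays. Of the 5 that passed the filter, 4 had negative differences and 1, Slc18a2, a positive one (0.13). The part of enterochromaffin-like cell number in the Cckbr values was not tested. Chrm3, the M3 muscarinic receptor, is read by a single probe. It gave 2908, 2801 and 2437 in knockout mucosa and 3505, 2726 and 2254 in wild type mucosa. Those groups overlapped around nearly equal means, 2716 ± 247 and 2828 ± 632 (mean ± SD, n = 3 each), with a difference of -0.04 (95% interval -0.48 to 0.40).

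**Figure D1:**
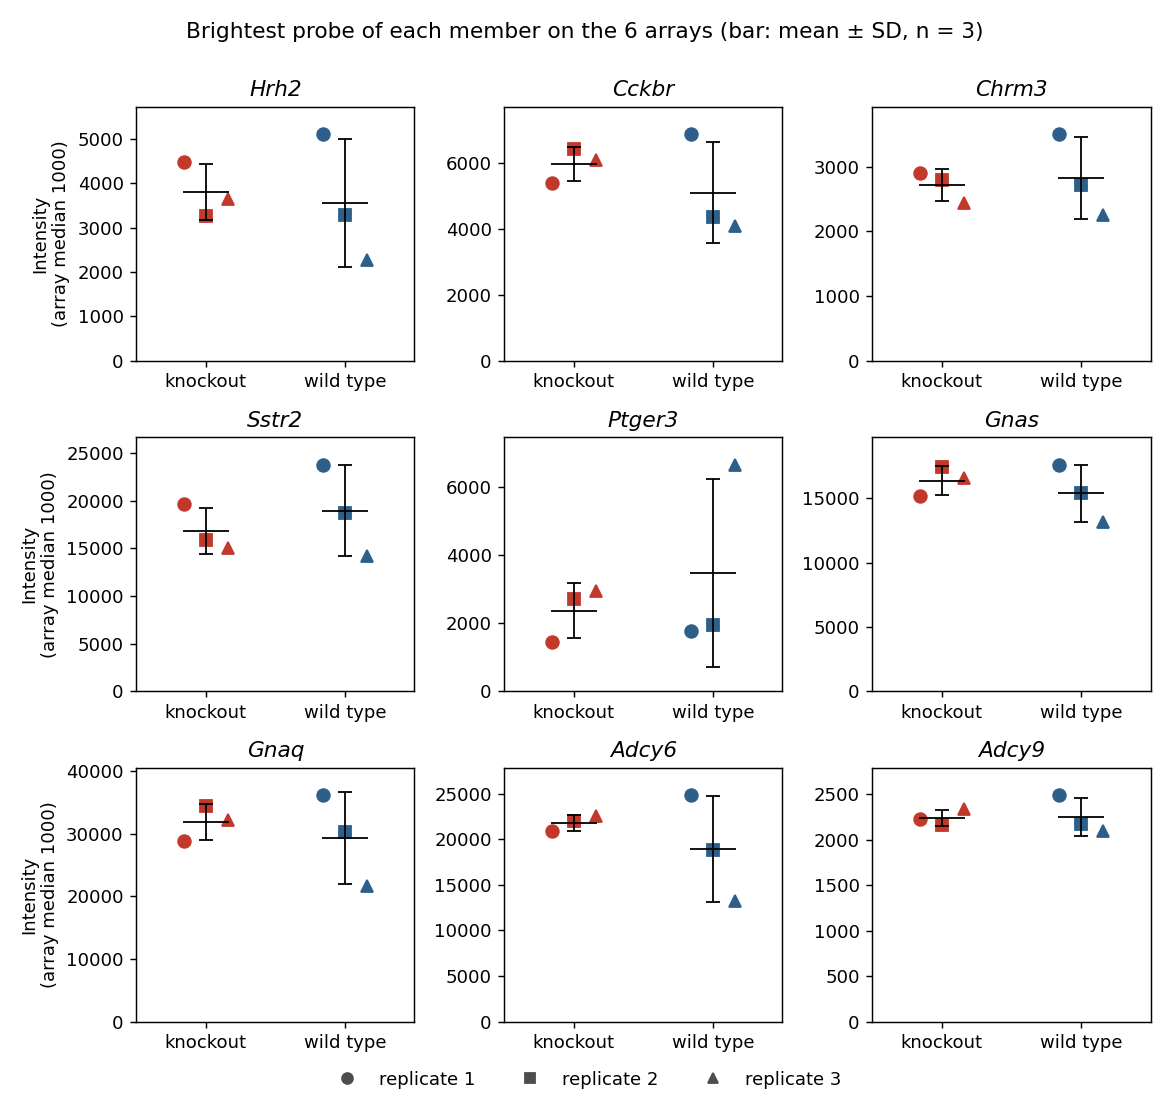
Linear intensity (array median 1000) of the brightest probe of each of the 9 genes, with knockout arrays on the left of each panel and wild type arrays on the right; symbols give the replicate and bars the mean ± SD of 3 arrays. In 8 of the 9 panels wild type replicate 1 is the highest array, and the knockout and wild type points overlap in all 9.

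The inhibitory receptors were also not called. Sstr2, the somatostatin receptor found on enterochromaffin-like and parietal cells, read 19617, 15835 and 15049 in knockout mucosa, against 23795, 18759 and 14237 in wild type mucosa. Each group had its highest value on replicate 1 and its lowest on replicate 3. The difference was -0.15 (SE 0.21, 95% interval -0.65 to 0.36, adjusted p = 0.994). The further Sstr2 probe stayed between 1032 and 1272 on all arrays.

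Ptger3, the EP3 prostaglandin receptor, varied most. It read 1431, 2710 and 2923 in knockout mucosa, against 1775, 1947 and 6642 in wild type mucosa, a 4.64-fold range over the arrays. The range of the other 8 genes was 1.19-fold to 2.25-fold. The difference by genotype was -0.34 with an interval of -1.62 to 0.94, wide enough to hold a fall to 0.326-fold and a rise to 1.92-fold. Ptger3 ran higher on all 3 arrays numbered 4 to 6 in their titles (knockout replicates 2 and 3 and wild type replicate 3) than on the 3 numbered 1 to 3. The labels do not say what that number means. With genotype in the model, this difference was 1.41 (SE 0.20, 95% interval 0.94 to 1.88, limma adjusted p = 0.0464), in a comparison that called 0.724% of all probes. None of the other 17 kept probes of the group was called in it. The comparison was made after the values were seen. The call was lost without knockout replicate 2 (adjusted p = 0.0609), knockout replicate 3 (0.211) or wild type replicate 2 (0.108), at differences of 1.49, 1.44 and 1.37. It held without wild type replicate 3 (0.98, adjusted p = 0.0443), wild type replicate 1 (1.32, 0.0444) or knockout replicate 1 (1.84, 0.00147). The 95% interval stayed positive in each of these fits, while the number of probes called over the whole array ran from 1 to 4177. The highest arrays for Ptger3, wild type replicate 3 and knockout replicate 3, were also those with the most pancreatic acinar transcripts (3336195 and 102138, against 7278 to 10377 elsewhere). The part of pancreatic tissue in the Ptger3 pattern was not tested.

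Neither G protein subunit was called. Gnas, which encodes the stimulatory alpha subunit and several other transcripts of an imprinted locus, had 10 probes, of which 4 were kept and 3 read above background on all arrays. Its brightest probe read 15167, 17433 and 16555 in knockout mucosa, against 17635, 15407 and 13198 in wild type mucosa. The difference of 0.10 (SE 0.15, 95% interval -0.25 to 0.44) had an interval narrower than those of the other genes except Adcy9, between 0.842-fold and 1.36-fold. A further bright probe, ILMN_1223437, read 5336 to 5989 in knockout mucosa and 4623 to 6113 in wild type mucosa, and another, ILMN_1252926, read 3099 to 4509 and 2159 to 4418. All 4 kept probes had positive differences, from 0.06 to 0.14, near the median of 0.10 over all kept probes. Which of the locus's transcripts each probe reads was not analysed here.

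Gnaq, the alpha subunit that couples the M3 and gastrin receptors to phospholipase C, read 28814, 34484 and 32184 in knockout mucosa, against 36160, 30192 and 21621 in wild type mucosa. The knockout arrays again lay inside the wild type range. Its difference was 0.15 (SE 0.20, 95% interval -0.34 to 0.63, adjusted p = 0.994). The 3 further kept probes gave 0.34, 0.19 and 0.10, and the largest of these, ILMN_1244266, read 5763, 5085 and 3539 in knockout mucosa and 4155, 4766 and 2586 in wild type mucosa.

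Both cyclases make cAMP from ATP on the inner face of the membrane. Adcy6, a calcium-inhibited cyclase, read 20871, 21995 and 22564 in knockout mucosa, against 24855, 18826 and 13216 in wild type mucosa. The knockout arrays were close together (21810 ± 861) and the wild type arrays spread widely around them (18966 ± 5821; SD, n = 3 each). The difference was 0.25 (SE 0.23, 95% interval -0.29 to 0.79, adjusted p = 0.994). Adcy9 was the steadiest gene of the group, with 2227, 2157 and 2332 in knockout mucosa and 2489, 2170 and 2090 in wild type mucosa. Its difference of -0.0036 had an interval of -0.29 to 0.28, or 0.817-fold to 1.22-fold on a scale that includes the background.

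Over the group, 5 genes had positive and 4 negative differences, with a median of 0.10, beside 0.10 over all kept probes. After quantile normalization, which brings the median over all kept probes to 0.0029, 3 differences were positive and 6 negative (median -0.07). None of the 18 kept probes was called, where 0.00883% of all kept probes were. None had an unadjusted p under 0.05, beside 1.73% of all kept probes, and none had groups that did not overlap, beside 7.19%. Exact two-sided permutation tests over the 6 arrays gave p of 0.4 to 1 for the 9 genes, in a design that cannot go below 0.1. A p that misses the threshold does not show that a gene was unchanged, and the intervals above give what these arrays leave possible.

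**Figure D2:**
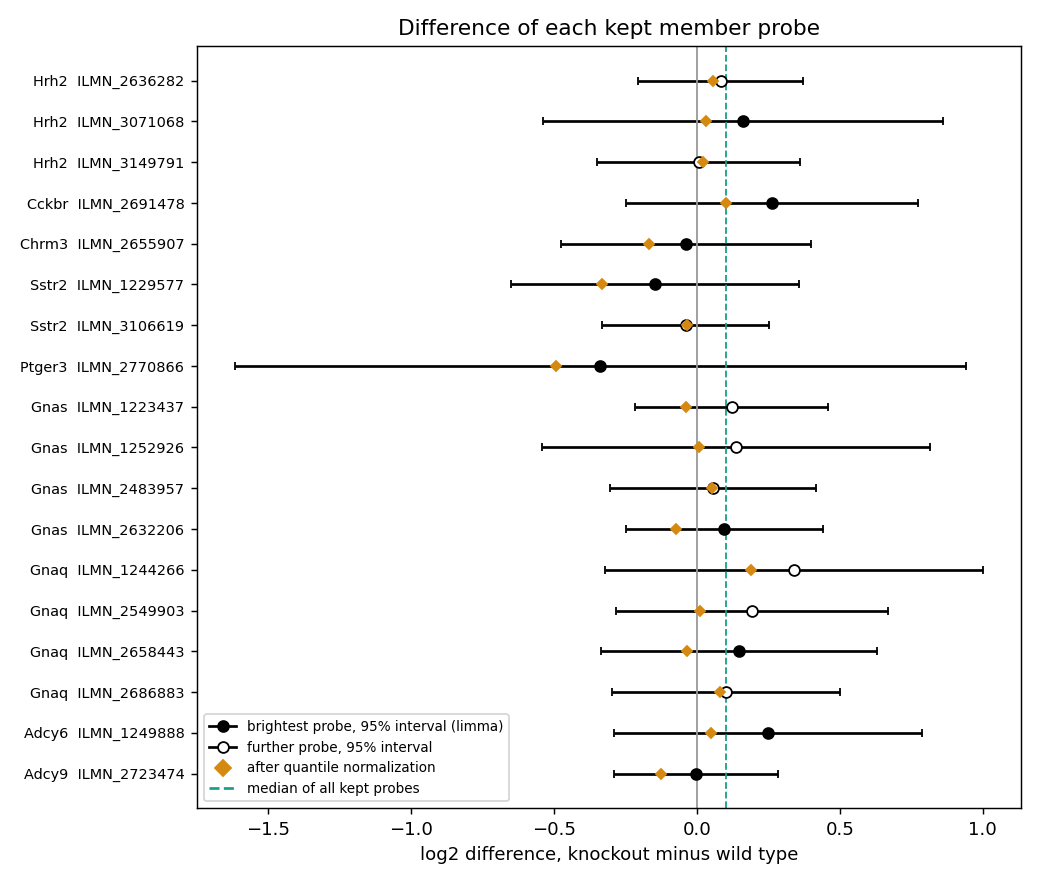
Log2 difference (knockout minus wild type) of the 18 kept probes with 95% intervals from limma; filled circles are the brightest probe of each gene, orange diamonds the same difference after quantile normalization, and the dashed line the median of all kept probes (0.10). Every interval includes 0, and that of Ptger3 is the widest.

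The highest and lowest arrays were shared by most genes of the group, while the arrays between them came in varying order. Wild type replicate 1 was the highest array and wild type replicate 3 the lowest for 8 of 9 genes, Ptger3 being the exception in both. Over the 18 kept probes wild type replicate 1 was highest for 11 and knockout replicate 1 for 4, and wild type replicate 3 was lowest for 15. Over all kept probes wild type replicate 3 was lowest for 64.9% and wild type replicate 1 highest for 30.4%, and among the 12 parietal cell markers the counts were 8 and 5. After quantile normalization wild type replicate 3 was lowest for 2 of the 9 genes and wild type replicate 1 highest for 4. The differences also varied with the title-number set. Within arrays numbered 1 to 3, where knockout replicate 1 stands against wild type replicates 1 and 2, 1 of 9 genes was higher in the knockout (median -0.09, 0.04 over all kept probes). Within those numbered 4 to 6, where knockout replicates 2 and 3 stand against wild type replicate 3, 8 of 9 were higher (median 0.36, 0.29 over all kept probes). Hrh2 differed by 0.13 and 0.60 in these sets, Cckbr by -0.02 and 0.61, Chrm3 by -0.09 and 0.21 and Sstr2 by -0.11 and 0.12. The corresponding values were -0.38 and -1.24 for Ptger3, -0.12 and 0.36 for Gnas, -0.20 and 0.62 for Gnaq, -0.05 and 0.75 for Adcy6 and -0.06 and 0.10 for Adcy9. Such a value uses a single array of one of the genotypes, so it has no test. Leaving out wild type replicate 3, the differences of the 9 genes had a median of -0.05 with 3 positive, and without both that array and knockout replicate 1 a median of 0.01 with 5 positive.

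**Figure D3:**
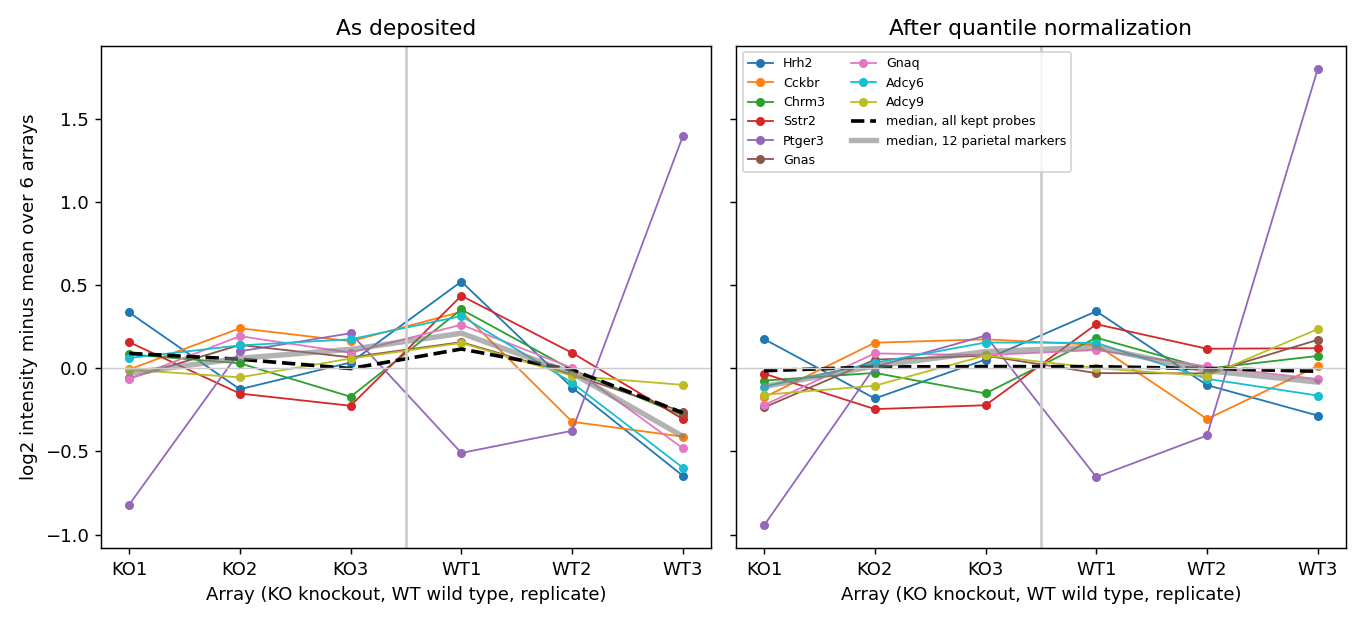
Log2 intensity of each gene minus its mean over the 6 arrays, by array (knockout on the left, wild type on the right), as deposited and after quantile normalization; the dashed black line is the median of all kept probes and the grey band that of 12 parietal cell markers. Apart from Ptger3, the genes dip on wild type replicate 3 in the deposited values, as does the median of all kept probes (-0.27).

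The genes whose levels ran most like each member over the 6 arrays were found among 11867 others, as the smallest root mean square difference of log2 intensities centred on each gene's mean. For Hrh2 these were E4f1 (0.04) and Polg2 (0.06), for Cckbr Pdcl (0.04) and Cttnbp2nl (0.06), for Chrm3 Kat6b (0.03) and Eng (0.03), and for Sstr2 Wwox (0.03) and Idh3b (0.04). Gnas ran most like Spc25 (0.01) and Mmadhc (0.02), Gnaq like Fpgt (0.03) and Eprs (0.03), Adcy6 like Mafg (0.02) and Cdk4 (0.03) and Adcy9 like Rida (0.02) and Chst14 (0.02). Those of Ptger3 were Vtn (0.19) and Cbs (0.21). The distance grows with a gene's own spread: its median over all genes compared was 0.86 for Ptger3 and 0.18 to 0.29 for the other members. Vtn, which encodes vitronectin, read 2258, 4698 and 5653 in knockout mucosa and 3247, 2483 and 11007 in wild type mucosa, and so was also highest on wild type replicate 3 and lowest on knockout replicate 1. With 6 arrays and this many genes close matches are common, and they are given as a description.

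The rest of the pathway gave no call either. Of 83 further genes in 7 lists, 80 had a probe and 49 passed the filter. None was called by limma (smallest adjusted p = 0.994), 2 of the 49 had an unadjusted p under 0.05 (1.73% of all kept probes) and 5 of the 49 had groups that did not overlap (7.19% of all kept probes). Their median difference was 0.09, with 35 positive and 14 negative (median 0.04 after quantile normalization).

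Among the ligands, Gast, the gastrin gene of antral G cells, read 5003, 21207 and 861 in knockout mucosa, against 43741, 35100 and 1354 in wild type mucosa. It was at or near background on replicate 3 of both genotypes and spread so widely that its difference of -1.50 had an SE of 1.60. The labels describe the mucosa as fundic, and the part of antral tissue in the Gast values was not tested. Hdc, the enzyme that makes histamine, read 23835, 26210 and 29957 in knockout mucosa, against 37676, 31476 and 28996 in wild type mucosa (difference -0.29, SE 0.15, adjusted p = 0.994). Knockout replicate 3 lay above wild type replicate 3, so the groups overlapped. Sst, which encodes somatostatin, read 101844, 122439 and 150913 in knockout mucosa and 112710, 104261 and 119406 in wild type mucosa (0.14, SE 0.17).

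Other receptors for the same ligands were at background: 12 of 14 with a probe read above it on no array. The brightest were Hrh1 (950 to 971 in knockout and 1004 to 1080 in wild type mucosa), Chrm4 (1023 to 1099 and 938 to 1078) and Ptger4 (938 to 1140 and 967 to 1110). Among the other G protein alpha subunits 6 of 9 kept genes had positive differences, with a median of 0.08 (-0.02 after quantile normalization), led in brightness by Gnai2 (0.24), an inhibitory subunit, Gna13 (0.15) and Gna11 (0.22), the close relative of Gnaq. The other cyclases above the filter were Adcy2 (0.17), Adcy4 (0.17) and Adcy7 (0.07).

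The G protein beta and gamma subunits had a median of 0.25, with 9 of 10 kept genes positive (median 0.08 after quantile normalization). Of these genes, 3 had groups that did not overlap, beside 7.19% of all kept probes. Their brightest members were Gnb1 (0.34, SE 0.20), Gnb2 (0.36, SE 0.20) and Gng12 (0.47, SE 0.18). Gng12 read 31708, 36856 and 28603 in knockout mucosa, against 25109, 27077 and 18612 in wild type mucosa, with all knockout arrays above all wild type arrays and an adjusted p of 0.994. Genes of receptor desensitization had a median of 0.10 (9 of 12 positive, median 0.07 after quantile normalization), with Rgs10 (0.31), Arrb1 (0.24) and Arrb2 (-0.05) as the brightest. Phospholipase C and phosphodiesterase genes had a median of 0.10 (4 of 7 positive, median -0.0052 after quantile normalization), among them Plcb3 (0.37, SE 0.21), an effector of Gq, Pde4d (0.10) and Pde4b (0.17), which break down cAMP.

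**Figure D4:**
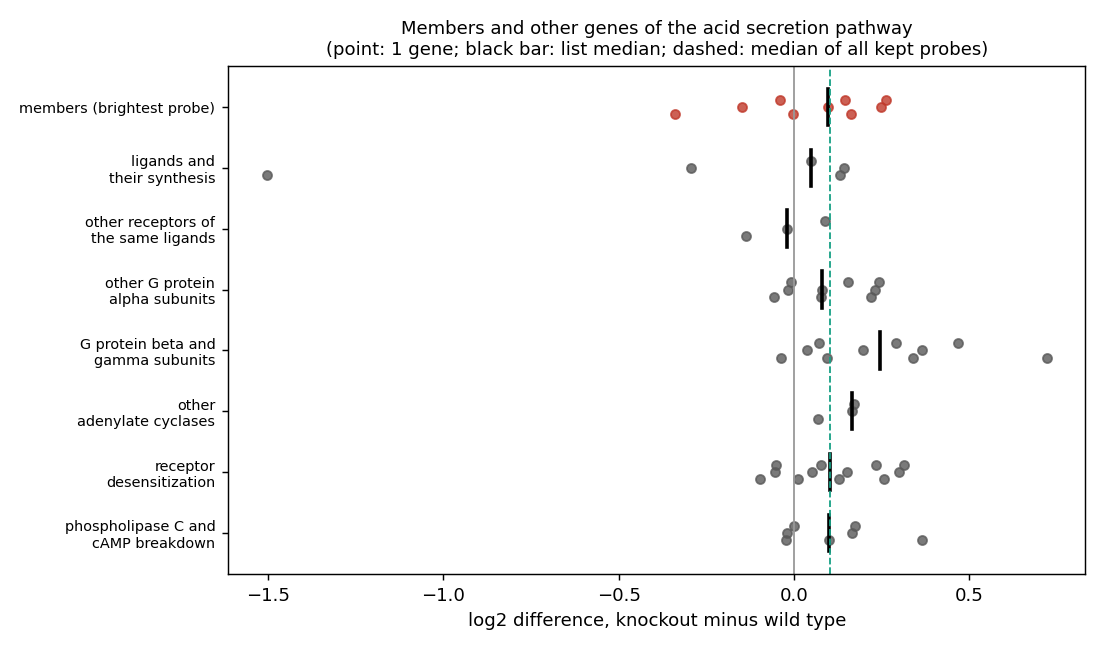
Log2 difference (knockout minus wild type) of the 9 genes of the group and of the kept genes in 7 further lists of the acid secretion pathway; each point is 1 gene by its brightest probe, black bars are list medians and the dashed line is the median of all kept probes (0.10). The beta and gamma subunits have the highest list median (0.25), and Gast is the point near -1.5.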

How the data were processed

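Biotin-labelled cRNA from total RNA of mouse fundic mucosa was measured, per the labels, on 6 Illumina arrays. The deposited table holds 1 linear intensity per probe and array, which the authors had scaled to a median of 1000 on every array, as the values themselves show; background was not subtracted. The scanning software and genome build are not named in the labels. Of 45281 probes, 34885 carried 1 symbol in the platform annotation, and 34807 of these had their gene identifier in the RefSeq table of GRCm38.p6. Intensities were log2 transformed, and the 22640 probes with a mean log2 value above that of the median probe (a mean intensity above 991) were kept. Knockout was compared with wild type in limma (lmFit, then eBayes; version 3.58.1, R version 4.3.3) by two-sided tests, Benjamini-Hochberg adjusted over all kept probes at a threshold of 0.05, after tests on simulated data. Precision is limited by the 3 arrays in each group. The genes named in the further lists are the 3 brightest of each by a fixed rule. The members, lists and alternatives were chosen with earlier results of these data known. The alternatives were quantile normalization, normexp, no filter, another variance model, array weights, 2 blocks, a threshold of 0.1, the mean of a gene's probes and leaving out arrays. Plots used matplotlib 3.10.9 and Python 3.11.15.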

Additional observations from a re-analysis of the deposited data

How the results depend on the processing

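The number of probes called over the whole array was 2 as reported, 1816 with array weights, 0 with the replicate block, 34 without both arrays with transcripts of other tissues (wild type replicate 3 and knockout replicate 1), and 0 to 3 on leaving out 1 array at a time. The array weights gave wild type replicate 2 a weight of 38.8 and every other array at most 1.6, and their estimation stopped before it converged. With them Cckbr passed (difference 0.50, adjusted p = 0.0364), the single call among the 9 genes in 15 alternatives each; adjusted p for Cckbr ranged up to 1. Differences turned sign as follows; the cause was not tested. After quantile normalization Gnas was -0.073 and Gnaq -0.036, and with normexp as well -0.076 and -0.037. Blocking on the title-number set gave 0.062 for Chrm3, 0.0048 for Sstr2 and 0.020 for Adcy9. Array weights gave 0.39 for Ptger3 and 0.035 for Adcy9, and without both arrays named above Hrh2 was -0.25 and Ptger3 0.60. On leaving out 1 array, differences ranged from -0.12 to 0.46 for Hrh2, 0.12 to 0.50 for Cckbr, -0.19 to 0.13 for Chrm3, -0.34 to 0.033 for Sstr2, -0.68 to 0.27 for Ptger3, -0.011 to 0.20 for Gnas, -0.058 to 0.31 for Gnaq, 0.011 to 0.47 for Adcy6 and -0.055 to 0.071 for Adcy9. Without wild type replicate 3 Hrh2 (-0.12), Ptger3 (0.27), Gnas (-0.011) and Gnaq (-0.058) turned. Without wild type replicate 1 Chrm3 (0.13), Sstr2 (0.033) and Adcy9 (0.071) turned. Adcy9 also turned without knockout replicate 2 (0.023), and Chrm3 without knockout replicate 3 (0.037). Adcy6 and Cckbr kept a positive difference under all 15. The labels do not say whether the replicate numbers pair the arrays. Deviations from the group means of same-numbered arrays correlated at 0.04, -0.30 and 0.53. Those of differently numbered arrays ran from -0.56 to 0.55, so with 3 arrays per group these values cannot settle it. None of the 9 genes was called with the replicate block or without it. Signal over background limits the dimmer probes.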

Other observations

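Chosen after their values were seen, 3 further pathway genes had higher values on all knockout than on all wild type arrays, none past the threshold (limma adjusted p = 0.994 each). Over the pathway lists 5 of 49 kept genes had groups that did not overlap, beside 7.19% of all kept probes. Gng13, a gamma subunit known from taste receptor cells, read 6246, 5290 and 4758 in knockout mucosa, against 4083, 3689 and 2336 in wild type mucosa (log2 difference 0.72, SE 0.23). Gng10, another gamma subunit, read 24199, 22520 and 23431 in knockout mucosa, against 22023, 18910 and 16701 in wild type mucosa (0.29, SE 0.14). Plcb2, a phospholipase C also known from taste receptor cells, read 1460, 1371 and 1218 in knockout mucosa, against 1184, 1184 and 1213 in wild type mucosa (0.17, SE 0.12). Its groups were parted only by 1218 against 1213, both on replicate 3. The wild type values lay near background (1086, 1189 and 1212 on wild type replicates 1 to 3). Hrh1, the H1 histamine receptor, read at background on all 6 arrays (950 to 971 in knockout mucosa, against 1004 to 1080 in wild type mucosa).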
